A study of Mus musculus with 8 samples.

Results

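The genes described here are a set of adhesion molecules, Icam1, Vcam1, Itgal, Itgav, Itga4, Itga5, Itgb1, Itgb2, Itgb3 and Itgb5, followed in sorted Kupffer cells, macrophages that reside in the liver sinusoids. They were chosen by name from the integrin family and its endothelial-type ligands, with earlier results of these data known. All 10 were among the 55414 genes of the deposited count table and among the 14655 that passed the filter on low counts. Wild-type C57BL/6J mice had caecal ligation and puncture (CLP), a sepsis model in which gut contents leak into the abdomen, or a sham operation (Sham). Their livers were taken 2 h later and Kupffer cells were isolated by fluorescence-activated cell sorting. There were 4 libraries per group, with 23311897 to 28724875 counts each. Age, sex and the sorting gate were not given in the sources used here, and no batch is named. The labels do not state that each library is a different mouse. The spread that p-values measure is that between these samples and may in part be technical.

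Integrins are surface receptors made of 1 alpha and 1 beta subunit, and the pair decides which ligand is bound. ITGAL with ITGB2 forms LFA-1, a receptor for ICAM-1; ITGA4 with ITGB1 forms VLA-4, which binds VCAM-1 and fibronectin; ITGA5 with ITGB1 is the classical fibronectin receptor; and ITGAV pairs with ITGB1, ITGB3 or ITGB5 and binds vitronectin and other matrix proteins that carry an RGD motif. ICAM-1 and VCAM-1 are immunoglobulin-superfamily proteins of inflamed endothelium that are also carried by macrophages, and VCAM-1 is a known surface protein of Kupffer cells.

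Kupffer cells sorted after CLP held more transcript of ICAM-1, of the fibronectin receptor chain Itga5 and of the vitronectin receptor chain Itgav than those sorted after sham surgery, by 5.40-fold, 5.09-fold and 2.95-fold. The common beta chains Itgb1 and Itgb2 each rose 1.83-fold, the scarce beta chain Itgb3 rose 2.52-fold, and Itgal rose 1.33-fold with TMM scaling but not with total-count scaling, where its log2 fold change was -0.13. Itgb5, another beta chain that pairs with Itgav, was 27.8% lower in CLP, but its call was lost in 7 of 15 alternative fits given below. Vcam1 and Itga4 did not pass the threshold. By edgeR's quasi-likelihood test with an adjusted p under 0.05, 7 of the 10 genes were higher and 1 was lower, where 24.9% of all genes tested were higher and 29.5% lower (54.3% either way). In 6 of them (Icam1, Itgal, Itgav, Itga5, Itgb1 and Itgb2) every CLP library lay above every Sham library, which 22.1% of all genes tested did. None of the 10 had every CLP library below every Sham library, against 27.3% of all genes tested (49.5% either way). Their median log2 fold change was 0.87, beside -0.040 over all genes tested. Because the set was chosen with earlier results of these data known, these comparisons with all genes are a description.

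Levels are given in CPM, read counts relative to the library's total after scaling by the trimmed mean of M-values (TMM). The TMM factors differed between the groups, at 0.825 ± 0.0165 in CLP and 1.21 ± 0.0557 in Sham (SD, n = 4). Scaling by total counts alone lowered the log2 fold changes by a median of 0.55 and left 17.1% of calls upward in place of 45.8%. Under that scaling Icam1, Itga5, Itgav, Itgb1, Itgb2 and Itgb3 were still higher and Itgb5 lower. CLP library 1 stood apart from the others of its group across genes (r = 0.968 to 0.972, against up to 0.987 among the rest), and results that turn on it are given without it.

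The RefSeq promoter table, on GRCm38.p6, held windows for 6 of the 10 genes (Icam1, Itga4, Itga5, Itgav, Itgb1 and Itgb5). The counts were made on mm39, per the submitters' processing notes, so the coordinates locate the windows only. Those of the largest risers, Icam1, Itga5 and Itgav, and of the only gene that fell, Itgb5, are printed 5′ to 3′ in the direction of the gene, 250 bases before the annotated start and 50 after, with motif matches in capitals.
Icam1, chr9:21015690-21015989, forward strand: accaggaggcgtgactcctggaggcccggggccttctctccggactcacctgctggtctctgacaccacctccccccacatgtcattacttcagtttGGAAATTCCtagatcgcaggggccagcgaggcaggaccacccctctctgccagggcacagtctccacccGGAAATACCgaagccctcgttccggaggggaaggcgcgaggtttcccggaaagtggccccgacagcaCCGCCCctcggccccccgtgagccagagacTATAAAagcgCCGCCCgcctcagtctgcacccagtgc
Itga5, chr15:103366742-103367041, reverse strand: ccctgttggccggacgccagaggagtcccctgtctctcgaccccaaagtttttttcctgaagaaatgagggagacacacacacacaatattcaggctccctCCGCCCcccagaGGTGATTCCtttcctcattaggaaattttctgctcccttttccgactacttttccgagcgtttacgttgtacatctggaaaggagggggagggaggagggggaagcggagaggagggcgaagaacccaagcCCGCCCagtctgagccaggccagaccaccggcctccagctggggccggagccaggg
Itgav, chr2:83724147-83724446, forward strand: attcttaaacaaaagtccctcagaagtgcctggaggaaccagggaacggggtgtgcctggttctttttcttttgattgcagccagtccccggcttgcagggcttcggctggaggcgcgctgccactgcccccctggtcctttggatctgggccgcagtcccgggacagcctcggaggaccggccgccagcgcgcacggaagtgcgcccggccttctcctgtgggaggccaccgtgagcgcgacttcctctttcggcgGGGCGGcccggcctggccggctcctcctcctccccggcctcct
Itgb5, chr16:33829415-33829714, forward strand: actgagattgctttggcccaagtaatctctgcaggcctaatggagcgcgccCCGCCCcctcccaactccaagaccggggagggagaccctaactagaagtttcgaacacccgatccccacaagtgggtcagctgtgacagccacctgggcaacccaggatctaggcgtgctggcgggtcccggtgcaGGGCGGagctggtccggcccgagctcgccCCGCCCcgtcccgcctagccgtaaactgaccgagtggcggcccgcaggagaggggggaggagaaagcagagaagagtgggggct
The motifs searched on both strands were a kappaB-like core (GGNNNTTCC), the AP-1 site (TGANTCA), the SP1 box (GGGCGG), an ETS core (CCGGAAGT) and the TATA box (TATAAA). No match overlapped another in these windows. Icam1 held 2 kappaB-like cores, at bases 98 to 106 and 167 to 175 of the window, where the annotated start is base 251. It also held 2 SP1 boxes, at bases 234 to 239 and 274 to 279, and 1 TATA box, at bases 264 to 269. That TATA box and the second SP1 box lie after the annotated start. Itga5 held 1 kappaB-like core, at bases 114 to 122, and 2 SP1 boxes. Itgav held 1 SP1 box, after the annotated start at bases 258 to 263, and Itgb5 held 3, with no kappaB-like core in either window. Of the windows not printed, that of Itgb1 held 1 kappaB-like core and 1 SP1 box, and that of Itga4 held 1 SP1 box. The AP-1 site and the ETS core were in none of the 6 windows. Among 32851 promoter windows of 300 bases, 18.5% held the kappaB-like core, 35.7% the SP1 box, 13.6% the TATA box, 7.81% the AP-1 site and 3.89% the ETS core. A match describes the letters of the window and is not evidence of a bound site.

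Icam1 (ENSMUSG00000037405), the ligand of LFA-1 and Mac-1, measured 2214, 2180.3, 2177 and 1608 CPM in CLP libraries 1 to 4. The Sham libraries held 715, 315, 264 and 221 CPM in the same order. The groups did not overlap: the lowest CLP library was above Sham library 1, which in turn was above the other 3 Sham libraries. The means were 2045 ± 292 CPM in CLP against 379 ± 227 CPM in Sham (SD, n = 4). This was a log2 fold change of 2.43 ± 0.34 (SE; 95% interval 1.67 to 3.19; edgeR adjusted p = 0.000185), and 3.40% of all genes tested had a larger one. Leaving out Sham library 1, the sham library highest in Icam1, raised it to 2.96. A transcript annotated on the opposite strand, Gm47079, held 16 counts in CLP against 6 in Sham, against 175325 and 48851 for Icam1. The strand setting of the counting is not given in the sources used here.

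Vcam1 (ENSMUSG00000027962), the ligand of VLA-4, had 4864, 4515, 3576 and 3514 CPM in CLP libraries 1 to 4 and 3007, 3619, 1909 and 3453 CPM in Sham libraries 1 to 4. CLP libraries 1 and 2 were above every Sham library, whereas Sham library 2 lay above CLP libraries 3 and 4, so the groups overlapped. Its log2 fold change was 0.46 ± 0.20 (95% interval 0.0047 to 0.91, before adjustment), with an edgeR adjusted p of 0.0808. The threshold was passed with DESeq2 (adjusted p = 0.0356), and the direction turned under total-count scaling (-0.089 on the log2 scale, edgeR adjusted p = 0.686). Gm43109, on the opposite strand, held 9 counts in CLP against 42 in Sham, against 353231 and 387099 for Vcam1.

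The balance of both ligands within a library does not depend on the scaling between libraries. The ratio of Icam1 to Vcam1 read counts ran from 0.455 to 0.609 in CLP and from 0.0641 to 0.238 in Sham. All CLP ratios were above all Sham ratios, by 4.27-fold on average (log2 difference 2.10; two-sided exact permutation p = 0.0286, adjusted p = 0.0476 over 5 ratios). With 4 libraries against 4, 0.0286 is the smallest p the test can give, and with 1 library left out the smallest is 0.0571. All 5 ratios, here and below, were chosen with earlier results of these data known. The adjusted p-values do not cover that choice.

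**Figure D1:**
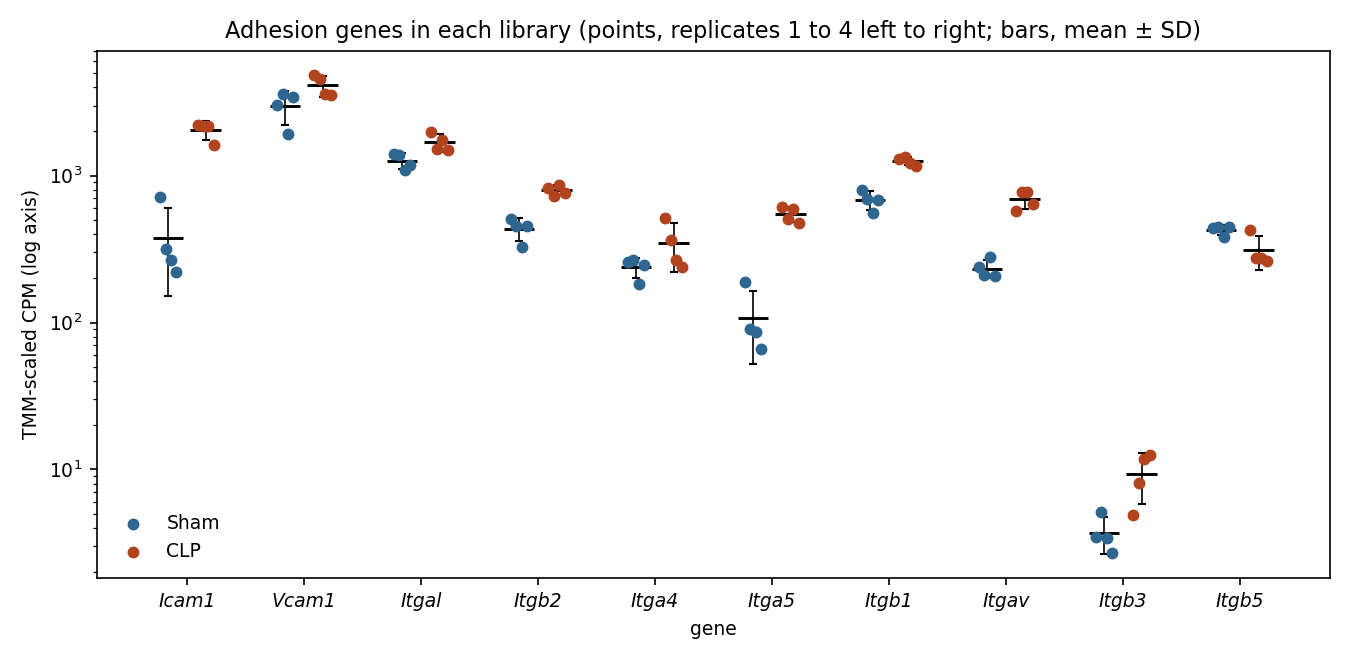
TMM-scaled CPM (log axis) of the 10 adhesion genes in each Sham (blue) and CLP (red) library, with bars for the mean and SD of 4 libraries. Icam1, Itga5 and Itgav show the widest gaps between the groups, Sham library 1 is the highest of its group for Icam1 (715 CPM) and Itga5 (189 CPM), and CLP library 1 lies among the Sham libraries for Itgb5 (429.7 CPM).

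Among the alpha chains, Itga5 (ENSMUSG00000000555), which with Itgb1 binds fibronectin, had the widest difference. CLP libraries 1 to 4 held 616, 506, 594 and 478 CPM, and Sham libraries 1 to 4 held 189, 89.8, 86.2 and 65.8 CPM. As for Icam1, the groups did not overlap and Sham library 1 was the highest of its group. Means were 548 ± 67.0 CPM in CLP against 108 ± 55.3 CPM in Sham (SD, n = 4), a log2 fold change of 2.35 ± 0.30 (95% interval 1.69 to 3.00; edgeR adjusted p = 9.2e-05). Without Sham library 1 the log2 fold change was 2.79.

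Itgav (ENSMUSG00000027087), the RGD-binding alpha chain, measured 575, 772, 771 and 637 CPM in CLP libraries 1 to 4 and 238, 211, 278 and 206 CPM in Sham libraries 1 to 4. Every CLP library was more than any Sham library, and CLP library 1 was the lowest of its group. The group means were 689 ± 98.9 and 233 ± 33.0 CPM (SD, n = 4), giving a log2 fold change of 1.56 ± 0.15 (95% interval 1.24 to 1.89; edgeR adjusted p = 1.5e-05). This gene had the smallest adjusted p of the 10. Gm13684, on the opposite strand, held 2 counts in CLP against 1 in Sham.

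Itga4 (ENSMUSG00000027009), the alpha chain of VLA-4, had 518, 364, 266 and 239.7 CPM in CLP libraries 1 to 4 and 256, 265, 184 and 246 CPM in Sham libraries 1 to 4. CLP libraries 1 and 2 were clearly above the Sham libraries, CLP library 3 was level with the highest of them, and CLP library 4 fell among them. The log2 fold change of 0.54 ± 0.23 (95% interval 0.03 to 1.06, before adjustment) did not pass (edgeR adjusted p = 0.0691). It passed with DESeq2 (adjusted p = 0.0304), without CLP library 3 (edgeR adjusted p = 0.0471) and without CLP library 4 (edgeR adjusted p = 0.0266), and was -0.0032 under total-count scaling. Without CLP library 1, the highest in Itga4, the log2 fold change was 0.29 (edgeR adjusted p = 0.171). Cerkl, a protein-coding gene that overlaps Itga4 on the opposite strand, held 92 counts in CLP against 261 in Sham, against 30123 and 30628 for Itga4.

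The balance of read counts between the fibronectin-binding chains Itga4 and Itga5 shifted. Exon length is 13978 bases for Itga4 and 4933 for Itga5, so read counts do not order both genes by level. Per kilobase of exon length, mean Itga5 was not below mean Itga4 in Sham (21.8 against 17.0, with overlapping ranges) and was above it in CLP (111 against 24.8). Itga4 counts were 1.36 to 3.74 times those of Itga5 in the Sham libraries and 0.448 to 0.841 times in the CLP libraries. The groups were fully separated (log2 difference -1.97; two-sided exact permutation p = 0.0286, adjusted p = 0.0476 over 5 ratios).

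Itgal (ENSMUSG00000030830), the alpha chain of LFA-1, was measured at 1984, 1516, 1757 and 1496 CPM in CLP libraries 1 to 4. Sham libraries 1 to 4 held 1414, 1378, 1092 and 1176 CPM. The groups did not overlap, but the lowest CLP library was close to the highest Sham library. The log2 fold change was 0.42 ± 0.14 (95% interval 0.10 to 0.73; edgeR adjusted p = 0.0280), and it turned to -0.13 under total-count scaling (edgeR adjusted p = 0.374). The call was lost without CLP library 1 (edgeR adjusted p = 0.0548), CLP library 3 (0.0659), Sham library 3 (0.0679) or Sham library 4 (0.0905), and when no filter on low counts was used (0.0685). The ratio of Itgal counts to those of Itgam, the alpha chain of Mac-1 and the other ITGB2 partner of many phagocytes, was 49.2 to 64.4 in CLP and 45.2 to 75.0 in Sham. This ratio did not separate the groups (log2 difference 0.062; two-sided exact permutation p = 0.771), and its sign turned when single libraries were left out (-0.025 to 0.22). Itgam itself was at 30.0 ± 5.38 CPM in CLP against 23.5 ± 4.59 CPM in Sham (edgeR adjusted p = 0.104).

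Among the beta chains, Itgb1 (ENSMUSG00000025809), the partner of Itga4, Itga5 and many other alpha chains, held 1294, 1338, 1222 and 1157 CPM in CLP libraries 1 to 4 and 799, 694, 556 and 683 CPM in Sham libraries 1 to 4. The libraries of a group were close to each other and the groups did not overlap. The log2 fold change was 0.88 ± 0.13 (95% interval 0.58 to 1.17; edgeR adjusted p = 2.8e-04), and it was 0.33 under total-count scaling, where the gene still passed. Itgb2 (ENSMUSG00000000290), the beta chain of leukocyte integrins, gave 821, 727, 868 and 767 CPM in CLP libraries 1 to 4 and 507, 455, 326 and 457 CPM in Sham libraries 1 to 4. Its groups were likewise separate, with Sham library 3 the lowest, as it was for Itgb1. For Itgb2 it was a log2 fold change of 0.87 ± 0.15 (95% interval 0.54 to 1.19; edgeR adjusted p = 5.9e-04), or 0.32 under total-count scaling, where it still passed. Summed neutrophil markers, from cells that also carry ITGB2, were at 239, 356, 582 and 557 CPM in CLP libraries 1 to 4 against 101 to 139 CPM in Sham. Their part in the rise of Itgb2 was not tested.

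Itgb3 (ENSMUSG00000020689), the beta chain of the platelet fibrinogen receptor and of a vitronectin receptor, was scarce. CLP libraries 1 to 4 held 4.91, 8.07, 11.9 and 12.5 CPM and Sham libraries 1 to 4 held 3.48, 5.15, 3.42 and 2.72 CPM. CLP library 1 lay below Sham library 2, so the groups overlapped, while CLP libraries 2 to 4 were above every Sham library. The log2 fold change was 1.34 ± 0.31 (95% interval 0.66 to 2.01, edgeR adjusted p = 0.00374) and rested on 788 counts in CLP against 474 in Sham. Without CLP library 1 the log2 fold change was 1.55 (edgeR adjusted p = 2.4e-04). Platelet markers, summed, were at 191, 187, 127 and 204 CPM in CLP libraries 1 to 4 and at 28.4, 18.5, 15.5 and 23.8 CPM in Sham libraries 1 to 4, and their part in the difference of Itgb3 was not tested.

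Itgb5 (ENSMUSG00000022817), which pairs with Itgav in a vitronectin receptor, had 429.7, 275, 273 and 260.4 CPM in CLP libraries 1 to 4 and 438, 448, 381 and 448 CPM in Sham libraries 1 to 4. CLP libraries 2 to 4 were below every Sham library, whereas CLP library 1 lay within the Sham range. Group means were 309 ± 80.4 CPM in CLP against 429 ± 32.1 CPM in Sham (SD, n = 4). The log2 fold change was -0.47 ± 0.17 (95% interval -0.84 to -0.10; edgeR adjusted p = 0.0345), and without CLP library 1 it was -0.67 (edgeR adjusted p = 3.4e-04). The call did not hold with a correction for GC content (-0.33, edgeR adjusted p = 0.0758). It was also lost when CLP library 2, 3 or 4 or Sham library 1, 2 or 4 was left out (edgeR adjusted p = 0.0816 to 0.101).

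The ratio of Itgav to its partner Itgb5 was higher in CLP. Read counts are not corrected for gene length, so the ratio does not order both genes by level. Per kilobase of exon length, the mean of Itgav was below that of Itgb5 in Sham (21.7 against 121) and in CLP (64.1 against 87.1). With the longest transcript as length, Itgav was slightly above Itgb5 in CLP (97.6 against 94.3). In the Sham libraries Itgav counts were 0.460 to 0.729 times those of Itgb5, and in the CLP libraries 1.34 to 2.82 times, with CLP library 1 the lowest of its group. The ratios did not overlap and differed by 4.17-fold on average (log2 difference 2.06; two-sided exact permutation p = 0.0286, adjusted p = 0.0476 over 5 ratios). The ratio between these ITGAV partners, Itgb3 over Itgb5, was 0.0114 to 0.0481 in CLP and 0.00608 to 0.0115 in Sham. CLP library 1 fell just below the highest Sham library, and the log2 difference of 1.78 did not pass (two-sided exact permutation p = 0.0571, adjusted p = 0.0714). Without CLP library 1 the log2 difference was 2.23, with an exact permutation p of 0.0571, the smallest that 3 libraries against 4 can give.

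**Figure D2:**
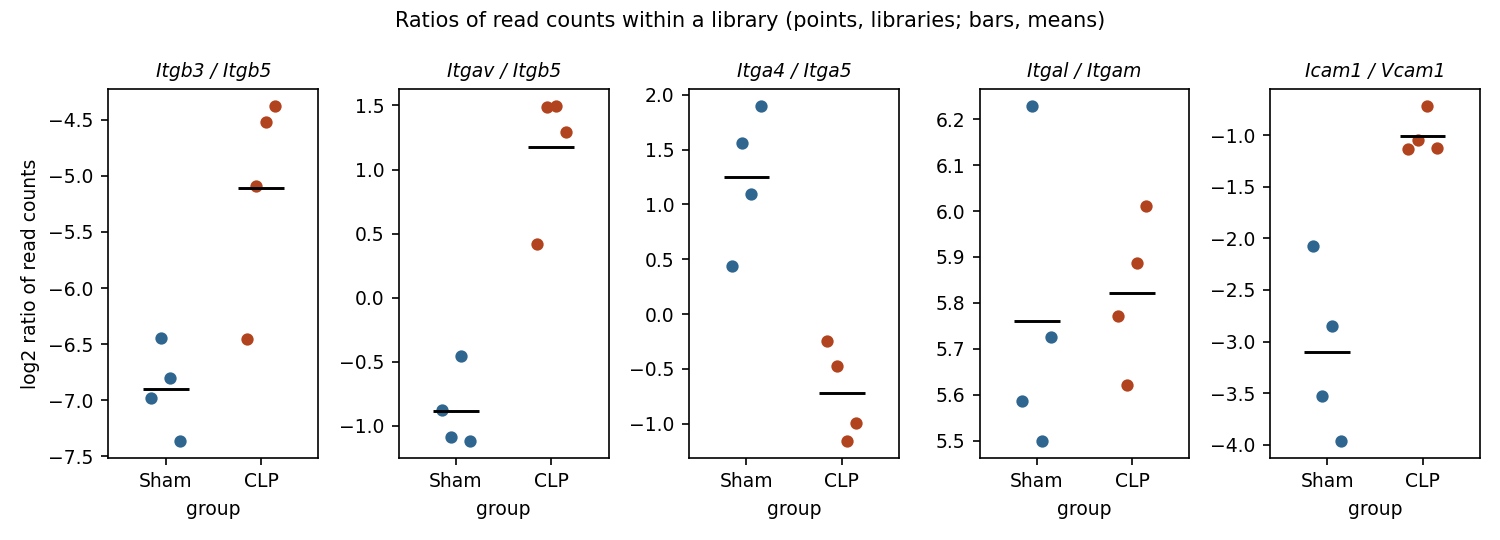
Log2 ratio of read counts within each library for 5 gene pairs, Sham (blue) beside CLP (red), with bars for the mean of 4 libraries. The ratios of Itgav to Itgb5, Itga4 to Itga5 and Icam1 to Vcam1 separate the groups, while Itgal to Itgam (mean difference 0.062) and Itgb3 to Itgb5 overlap.

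**Figure D3:**
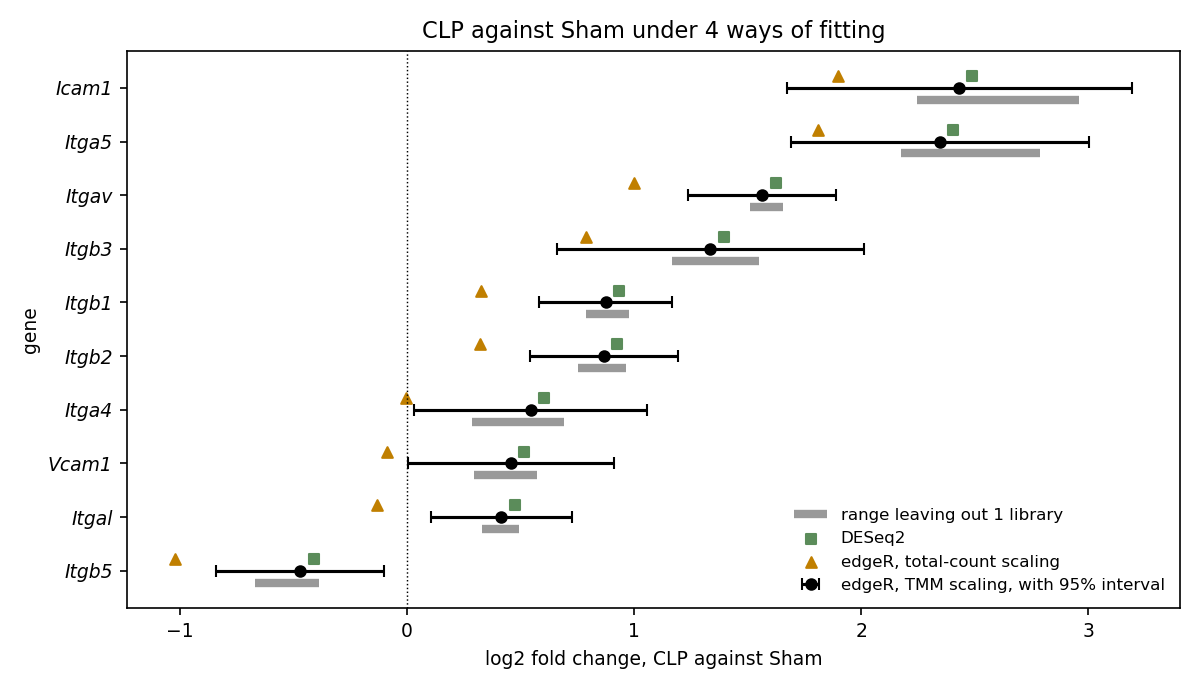
Log2 fold change of each gene, CLP against Sham, by edgeR with TMM scaling (black, 95% interval), DESeq2 (green squares) and edgeR with total-count scaling (orange triangles), with the range over 8 fits that each leave out 1 library in grey. Icam1 (2.43) and Itga5 (2.35) lie farthest to the right and Itgb5 (-0.47) is on the left, while the total-count values of Itgal (-0.13), Vcam1 (-0.089) and Itga4 (-0.0032) fall at or below 0.

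To compare levels between genes, CPM was divided by the length of all annotated exons of the gene. In Sham, Vcam1 was the most abundant of the 10 at a mean of 338 CPM per kilobase, followed by Itgal at 193, Itgb1 at 167, Itgb2 at 143, Itgb5 at 121 and Icam1 at 86.9. The ranges of neighbours in this order overlapped. Within a library, Vcam1, Itgal and Itgb1 were each above the next gene in all 4 Sham libraries, and Itgb2 and Itgb5 in 3 of 4. A clear step separated Icam1 from Itga5 (21.8 CPM per kilobase), which did not differ beyond its spread from Itgav (21.7). Itga4 (17.0) was below Itgav in every Sham library, and Itgb3 (0.626) was far below the rest.

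In CLP the order changed at the top and in the middle. Icam1 reached a mean level of 469 CPM per kilobase, beside 464 for Vcam1, with overlapping ranges and with Icam1 above Vcam1 in only 1 of 4 libraries. Itgb1 (307), Itgb2 (261) and Itgal (257) followed with overlapping ranges, then Itga5 (111), Itgb5 (87.1), Itgav (64.1), Itga4 (24.8) and Itgb3 (1.58). Within a library, Itgb1 was above Itgb2 in all 4 CLP libraries and Itgb2 above Itgal in 3 of 4. Ranges of neighbours were separate between Vcam1 and Itgb1, between Itgal and Itga5, and at each step from Itgb5 downward. The length used changed several of these orders. With the longest transcript in place of all exons, the CLP mean of Vcam1 (1007) was above that of Icam1 (807), that of Itgal (323) above Itgb2 (268) and that of Itgav (97.6) above Itgb5 (94.3). In Sham, Icam1 (149) then came above Itgb2 (147) and Itgb5 (131), and Itgav (33.1) above Itga5 (24.4).

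As a share of the summed level per kilobase of all 8 beta chains, Itgb5 made up 27.5% ± 2.05 in Sham and 12.9% ± 2.56 in CLP (SD, n = 4). The Sham shares ran from 25.0 to 30.0% and the CLP shares from 11.4 to 16.8%, without overlap. Itgb1 went from 37.9% ± 1.30 to 46.0% ± 2.67 and Itgb2 from 32.2% ± 1.68 to 39.1% ± 2.83. Itgb3 held 0.143% in Sham and 0.241% in CLP. Among the 18 alpha chains, Itga5 went from 5.30% ± 2.13 of the summed level per kilobase in Sham to 17.0% ± 1.34 in CLP, and Itgav from 5.48% ± 1.16 to 9.86% ± 1.59. Itgal had the largest share in both groups, 48.0% ± 1.83 in Sham and 39.3% ± 3.45 in CLP. Itga9, a chain that pairs with ITGB1 and was named after its values were seen, came next with 35.0% and 27.9%. These shares are a description and were not tested.

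By the likeness of their log2 CPM, centred on the mean of the 8 libraries, the genes closest to Icam1 among 14654 others were Tnfaip2, Itga5 and Samsn1. Their root mean square differences were 0.131, 0.135 and 0.139 on the log2 scale. Tnfaip2, a TNF-inducible gene, averaged 3304 CPM in CLP and 587 in Sham, and Samsn1, an adaptor of immune cells, 446 and 85.1 CPM. Sham library 1 was the highest Sham library for Icam1 and for Itga5 alike. Closest to Itgb5 were Mrpl36 (0.0318), Manea (0.0553) and Lsm6 (0.0566), a mitochondrial ribosomal protein, a glycan-processing enzyme and an RNA-binding protein. Likeness over 8 libraries from a single contrast is a description, since all points share the same libraries.

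The other 18 integrin subunits were mostly scarce. Over all genes tested, 24.9% were higher and 29.5% lower by edgeR. Of 13 tested, 7 were higher and 0 were lower by edgeR, with DESeq2 also calling 0 lower; at an unadjusted p under 0.05, 1 was lower (Itga10, 0.689 CPM in CLP against 1.38 CPM in Sham, edgeR adjusted p = 0.0739). Their median log2 fold change was 1.08, and 5 of the 13 were under 1 CPM in Sham. By the rule of smallest p, Itga2b, Itgb8 and Itga6 are given. Itga2b, the platelet partner of Itgb3, averaged 6.04 ± 1.64 CPM in CLP against 1.17 ± 0.130 CPM in Sham (SD, n = 4; log2 fold change 2.36 ± 0.24; edgeR adjusted p = 2.4e-05). Itgb8, which pairs with Itgav and binds latent TGF-beta, had 250 counts in CLP against 14 in Sham (ratio 26.8; exact 95% counting interval 15.7 to 49.7). Without Sham library 2 the ratio was 39.8. Counting intervals cover counting error only. Itga6, a laminin receptor chain, was at 8.31 ± 2.78 and 2.78 ± 0.575 CPM (log2 fold change 1.58 ± 0.27; edgeR adjusted p = 6.5e-04). Total-count scaling gave 4 of the 13 higher and 1 lower. Without CLP library 4 or without Sham library 1, 1 gene was called lower.

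Of the other integrin ligands, 20 of 23 were tested, 10 were higher and 1 was lower, beside 24.9% higher and 29.5% lower over all genes tested. The median over the 20 was 0.58 on the log2 scale, and 4 were under 1 CPM in Sham. Thbs1, encoding thrombospondin 1, a matrix protein that binds integrins and CD47, averaged 126 ± 72.2 CPM in CLP against 4.34 ± 1.44 CPM in Sham (4.86 ± 0.44 on the log2 scale; edgeR adjusted p = 1.2e-05). Ccn1, a matricellular ligand of ITGAV integrins, was the gene that fell, from 20.5 ± 3.82 to 2.31 ± 0.466 CPM (log2 fold change -3.15 ± 0.20; edgeR adjusted p = 2.2e-06). Lamc1, a laminin chain, was at 6.38 ± 1.05 CPM in CLP against 3.00 ± 0.347 CPM in Sham. The number higher was 6 without CLP library 2, CLP library 4 or Sham library 4, and ranged up to 14 without CLP library 1. Under total-count scaling 3 were higher and 4 lower, and the median was 0.030.

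In the machinery that activates integrins and links them to actin, 21 of 34 genes tested were higher and 2 were lower. Over all genes tested, 24.9% were higher and 29.5% lower. The median over the 34 was 0.51 on the log2 scale. Rap1b, the small GTPase that drives integrin activation, rose from 659 ± 71.5 to 1558 ± 40.1 CPM (log2 fold change 1.24 ± 0.12; edgeR adjusted p = 1.5e-05). The kinases Syk and Lyn, which act downstream of leukocyte integrins, rose from 576 ± 112 to 1846 ± 342 CPM (Syk) and from 891 ± 115 to 1814 ± 119 CPM (Lyn). Rasgrp2, an exchange factor that loads Rap1 with GTP, fell from 120.4 ± 24.7 to 38.9 ± 13.5 CPM (log2 fold change -1.63 ± 0.23; edgeR adjusted p = 1.7e-04). Rassf5, the Rap1 effector RAPL, fell from 88.0 ± 5.32 to 30.5 ± 15.5 CPM (-1.53 ± 0.27; edgeR adjusted p = 7.8e-04). CLP library 1 was the highest of its group for both of these, at 58.8 and 53.6 CPM. Under total-count scaling 9 of the 34 were higher and 8 lower and the median was -0.043, so the direction of this list as a whole depends on the scaling.

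Selectins and junctional adhesion molecules had 11 of 16 genes higher and 1 lower, beside 24.9% higher and 29.5% lower over all genes tested. The median over the 16 was 0.99 on the log2 scale, and 4 were under 1 CPM in Sham. Sele, E-selectin of activated endothelium, had 2677 counts in CLP against 5 in Sham, and all 5 came from Sham library 2. The ratio was 802 (exact 95% counting interval 343 to 2474), and without Sham library 2, where the Sham count was 0, its lower 95% counting limit was 809. Selp, P-selectin of endothelium and platelets, had 2347 and 169 counts, a ratio of 20.8, or 31.9 without Sham library 1. Cd44, a receptor for hyaluronan on leukocytes, rose from 988 ± 138 to 2389.7 ± 404 CPM (log2 fold change 1.27 ± 0.16; edgeR adjusted p = 9.2e-05). Cd99l2, which acts in leukocyte passage through endothelium, was the gene called lower (11.4 against 16.2 CPM; log2 fold change -0.51; edgeR adjusted p = 0.0493). Its call was lost with DESeq2 (adjusted p = 0.0726), after GC correction (0.0653 by edgeR) and without CLP library 2, 3 or 4 or Sham library 1, 2 or 4. Leaving out CLP library 1 or Sham library 3 gave 2 genes lower. Total-count scaling gave 6 of the 16 higher and 4 lower, with a median of 0.43.

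**Figure D4:**
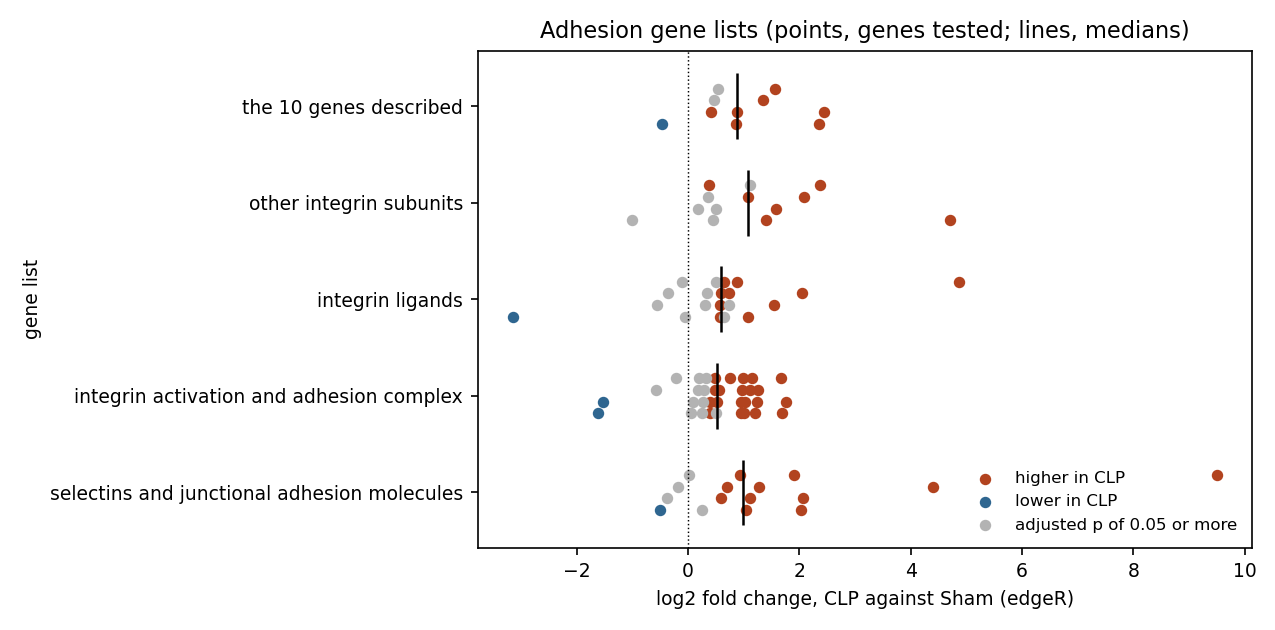
Log2 fold change (edgeR) of every gene tested in the set of 10 and in 4 related lists, red for higher in CLP, blue for lower, grey for an adjusted p of 0.05 or more, with a line at each median. The medians are 0.87 for the 10 genes, 1.08 for other integrin subunits, 0.58 for ligands, 0.51 for the activation and adhesion complex and 0.99 for selectins and junctional molecules. Under total-count scaling the medians of the 4 lists, in that order, are 0.52, 0.030, -0.043 and 0.43.

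Markers of other cells that carry these molecules were measured in the same libraries. Their counts by edgeR stand beside 24.9% higher and 29.5% lower over all genes tested. In bulk RNA, fewer cells of a type and less RNA per cell cannot be told apart. The sorts held the defining Kupffer cell markers: 11 of them summed to 35096 to 45827 CPM in CLP and 26919 to 34748 CPM in Sham. Of the 11, 4 were higher by edgeR (8 by DESeq2), and the most abundant, Clec4f (8920.2 and 7374 CPM) and Cd5l (6451 and 5316 CPM), did not pass by edgeR. Of 11 sinusoidal endothelial markers, 4 were higher, with sums of 578 to 619 CPM in CLP and 485 to 553 CPM in Sham. The most abundant, Stab2, was at 293 CPM in CLP against 302 CPM in Sham (edgeR adjusted p = 0.698). All 9 of 12 neutrophil markers that were tested were higher (sums of 239 to 582 against 101 to 139 CPM), with Ly6g and Camp at 0 in every Sham library. Likewise all 8 of 11 platelet markers that were tested were higher (127 to 204 against 15.5 to 28.4 CPM), led by Pf4 at 148 ± 36.4 and 18.1 ± 5.84 CPM, with Gp1bb at 0 in all 8 libraries. Itga2b belongs to this list as well as to the integrin subunits. Summed monocyte markers overlapped (207 to 345 against 161 to 266 CPM, 1 of 5 tested higher), as did T and NK cell markers (18.4 to 31.5 against 11.1 to 22.2 CPM, 1 of 2 tested higher). Only 2 of the 11 T and NK cell markers passed the filter on low counts, and with no filter 5 of 11 were higher and 0 lower. B cell markers summed to 23.2 to 36.7 against 9.59 to 14.6 CPM (7 of 8 higher and 1 lower), and dendritic cell markers to 12.9 to 19.3 against 22.6 to 41.4 CPM (1 of 4 higher and 1 lower). Of the markers tested, 6 of 8 B cell, 5 of 8 platelet and 4 of 9 neutrophil markers were under 1 CPM in Sham. A gene can pass the filter on the counts of 1 group, so such markers could enter through CLP, where they are high. With no filter, 11 of 12 neutrophil and 10 of 10 platelet markers with any counts were higher, and 7 of 8 B cell markers were higher and 1 lower. Of the 2 most abundant B cell markers, Ighm was higher and Cd79b was the one that fell (log2 fold change -0.908, edgeR adjusted p = 0.0203). The call of Cd79b was lost without CLP library 2 or 3 or Sham library 1 or 4. Hepatocyte markers summed to 2621 to 3409.8 against 2014 to 2724 CPM (0 of 8 passed by edgeR, 3 at an unadjusted p under 0.05, and 1 passed by DESeq2) and stellate cell markers to 159.9 to 189 against 122 to 147 CPM (3 of 9 higher and 1 lower). Total-count scaling gave other counts for these lists, beside 1715 higher and 8292 lower among all 14655 genes tested. Kupffer cell markers then had 0 higher and 2 lower, endothelial markers 0 higher and 3 lower (with Stab2 at an edgeR adjusted p of 2.5e-04), hepatocyte markers 0 higher and 6 lower, and stellate cell markers 0 higher and 1 lower. Monocyte markers had 1 higher and 1 lower, T and NK cell markers 0 either way and dendritic cell markers 1 higher and 2 lower. Still higher were 8 of 9 neutrophil, 8 of 8 platelet and 7 of 8 B cell markers. The part of other cells in the changes of the adhesion genes was not tested.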

How the data were processed

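RNA of 8 sorted Kupffer cell samples was sequenced after the Aurum Total RNA mini kit and the Illumina TruSeq stranded kit on an Element AVITI, per the labels' protocols. The deposited table holds raw read counts for 55414 genes, made by the authors with STAR 2.7.10b and featureCounts on mm39 after FastQC, and DESeq2 was also used, per the submitters' processing notes. Their settings, annotation release and strand setting were not given in the sources used here. Samples were grouped as CLP or Sham by their labels.

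Counts were filtered (filterByExpr), TMM-scaled and tested with edgeR 4.0.16 in R 4.3.3, a robust quasi-likelihood fit with surgery as the only term and Benjamini-Hochberg adjustment over 14655 genes at 0.05. Count ratios were tested with scipy 1.17.1. Symbols and exon lengths came from GENCODE M21 on GRCm38, and 52081 IDs matched, holding 99.8% of the counts. A prior count of 2 was used for log2 CPM. The 10 genes, the gene lists and the tests were chosen with earlier results of these data known. Named genes were the 10, the 3 of smallest p in each list, any called gene of a direction with 5 or fewer calls, the 2 most abundant markers of each cell type where a result turned on them and the 3 genes most like Icam1 and Itgb5. Itgam was named through its planned ratio. Outside this rule, Itga9, Itga10 and the markers at 0 (Ly6g, Camp and Gp1bb) were named after their values were seen, and the opposite-strand genes by their position. The SE is the log2 fold change over the square root of F. Alternatives used DESeq2 1.42.0, total-count scaling, a GC offset, other filters, a replicate block and leaving out each library. On simulated counts of 14421 genes, edgeR recovered 4, 29, 43 and 48 of 50 genes changed 1.5-fold, 2-fold, 4-fold and 8-fold, with 9 false calls among 133. Only these planted genes were changed there, whereas 54.3% of genes were called in the data. The adjustment was therefore stricter in the simulation, and its rates need not hold for the data.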

Additional observations from a re-analysis of the deposited data

Results flagged for a closer look

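Dixon's test of the highest and lowest library marked 3 of the 30 groups of 4 libraries looked at, where chance marks about 1 in 20. Icam1 in CLP library 4 was at 1608 CPM, below the other CLP libraries at 2177 to 2214 CPM. Itgb5 in CLP library 1 was at 429.7 CPM, above the other CLP libraries at 260.4 to 275 CPM. Itgb5 in Sham library 3 was at 381 CPM, below the other Sham libraries at 438 to 448 CPM.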

How the results depend on the processing

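Icam1, Itga5, Itgav, Itgb1, Itgb2 and Itgb3 kept their direction and passed the threshold under all 15 alternatives, with log2 fold changes of 1.90 to 2.96, 1.81 to 2.79, 1.00 to 1.66, 0.33 to 0.98, 0.32 to 0.97 and 0.79 to 1.55. Total-count scaling gave 1715 genes higher and 8292 lower, and turned Itgal (-0.13), Vcam1 (-0.089) and Itga4 (-0.0032). With the GC correction 0 of the 10 genes were lower. Leaving out 1 library gave 6 to 8 of the 10 higher, 0 to 1 lower, and a log2 ratio of Itgal over Itgam of -0.025 to 0.22. The cause was not tested. Over all genes these fits gave 3244 to 4235 higher and 3716 to 4997 lower, the most without CLP library 1. Leaving out both libraries numbered 1, chosen after the data were seen, gave 7 of the 10 higher and 1 lower.

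Same-numbered libraries did not clearly deviate together (r = 0.17, -0.12, 0.13 and -0.09 for numbers 1 to 4). No CLP library correlated best with the Sham library of its own number. Of the Sham libraries, only library 1 correlated best with its own number. The labels do not say whether same-numbered samples share a day or batch, and these correlations cannot settle it. With the number as a replicate block, 9 of the 10 genes were higher and 1 lower, Vcam1 (edgeR adjusted p = 0.0411) and Itga4 (0.0406) being added, and 3491 genes were higher and 4303 lower. The exact paired permutation test of a ratio cannot go below p = 0.125. Few counts limit Itgb3 and Itgb8.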
